A study of Mus musculus with 4 samples.

Results

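LINE L1 repeats were the 20733 entries of class LINE/L1 among the 151644 regions that had a CG methylation level in all 4 libraries. They made up a large share of the 44955 repeats with a level in every library, beside 24222 repeats of other classes. Members were taken by the class written in each entry's name and by having a level in all 4 libraries. The size of a level did not choose them directly, but entries left out were less methylated where listed, as described below. Each entry is named by its subfamily and by the stretch of the L1 consensus that it covers, and entries covered between 10 and 6660 bases of it, with a median of 889.

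The cells were C3H10T1/2, an established embryonic mouse line used as a model of mesenchymal stem cells (MSCs). All cells were transfected for 48 h, either with a control siRNA (NC) or with an siRNA against DNMT1 (siDNMT1), the maintenance enzyme that copies CG methylation to new DNA after replication. They were then left uninduced or kept for 3 days in osteoblast (OB) induction medium with L-ascorbic acid, β-glycerophosphate and dexamethasone. This gave NC uninduced, siDNMT1 uninduced, NC OB and siDNMT1 OB cells, which were compared to ask how DNMT1 depletion and OB induction change DNA methylation. Each condition was a single library of 1 cell line, so a difference between conditions cannot be told apart from a difference between 2 libraries, and no test was possible. The methylation level is the fraction of methylated CG cytosines per entry, from 0 to 1, as the authors deposited it from bisulfite sequencing. No read counts stand behind it in these values, so the depth is unknown and no interval can be given for a single level.

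L1 is the main autonomous retrotransposon of mammals. A full copy holds a 5′ UTR with an internal promoter, which in mouse is built of repeated monomers, then ORF1, coding for an RNA-binding protein, ORF2, coding for an endonuclease and reverse transcriptase, and a 3′ UTR. Most copies lost their 5′ end on insertion, and CG methylation of the 5′ UTR is known to keep intact copies silent. The L1MdA, L1MdTf and L1MdGf families of the mouse hold members that still move, L1MdF is an older mouse family, Lx elements are older rodent copies, and the L1M and HAL1 elements are ancient and shared among mammals.

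The positions in the entry names count along the repeat consensus and not along a chromosome. Genome position, strand, neighbouring genes and sequence of single copies are therefore not given here. Among the L1 entries, 22 pairs had the same 4 levels while holding at least 3 different values, 44 entries in all, so entries are not fully independent of each other. Of the 25251 L1 entries listed in any library, 82.1% were listed in all 4, against 87.5% of the other repeats. The NC uninduced library listed 22933 of them, siDNMT1 uninduced 23556, NC OB 23273 and siDNMT1 OB 22077. The 4518 entries missing from at least 1 library were less methylated where they were listed, with medians of 0.336, 0.333 and 0.355 for those listed in 1, 2 and 3 libraries, against 0.428 for those in all 4.

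L1 copies were only partly methylated in these cells, and more weakly than the other repeat classes compared. The median level over the 20733 entries was 0.426 in NC uninduced (quartiles 0.268 and 0.569), 0.421 in siDNMT1 uninduced (0.267 and 0.564), 0.438 in NC OB (0.279 and 0.580) and 0.424 in siDNMT1 OB (0.269 and 0.563). The 3 libraries other than NC OB lay within a narrow band, and NC OB was the highest. Other repeats had medians of 0.540, 0.534, 0.542 and 0.525 in the same order. Of the 18 other repeat classes with at least 50 entries, all had a higher median than L1 in each of the 4 libraries, from 0.506 for the class named Other to 0.630 for satellites in NC uninduced. In that library 16.3% of L1 entries were below 0.2 and 3.62% reached 0.8, while among other repeats 10.3% were below 0.2 and 11.6% reached 0.8. Entries kept their order between libraries, with Spearman's rho between 0.954 and 0.964 for the 6 pairs of libraries, a description over entries that share the libraries.

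**Figure D1:**
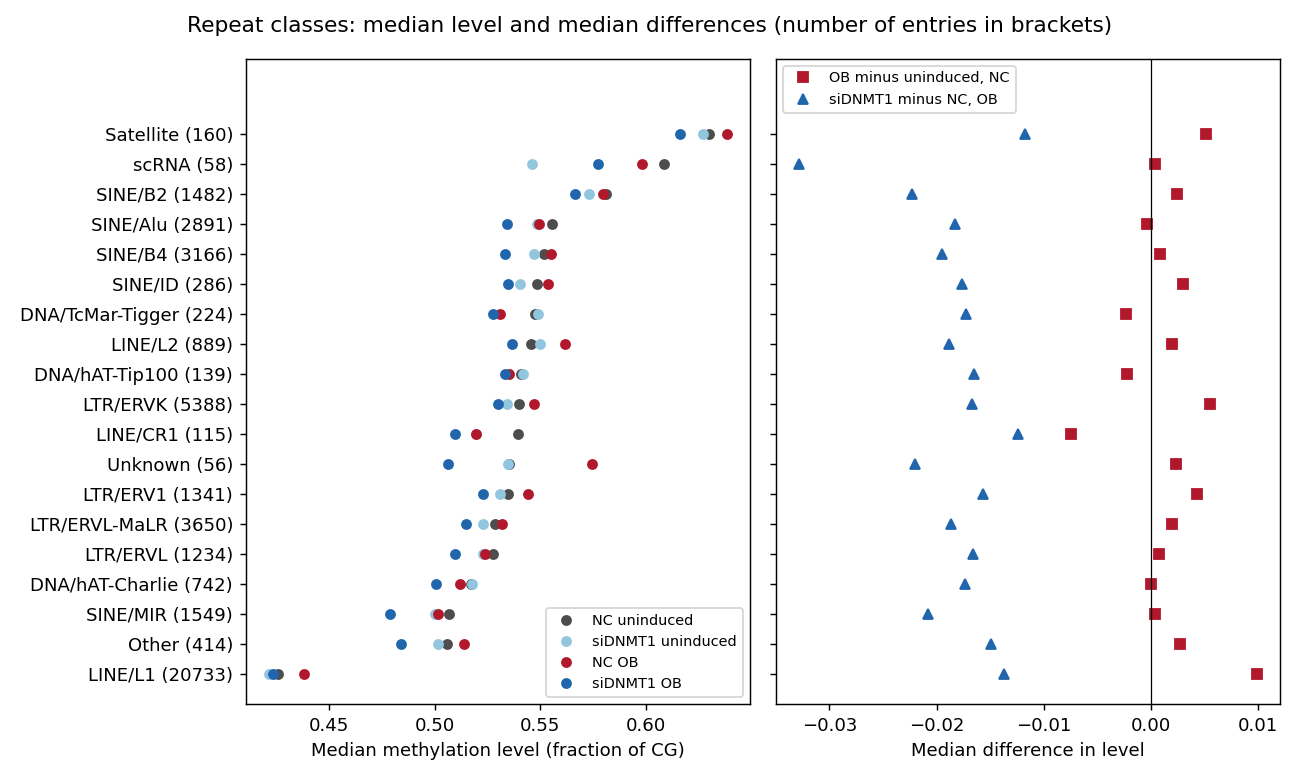
Median methylation level in each of the 4 libraries (left, fraction of methylated CG cytosines) and median difference for OB minus uninduced in NC cells and siDNMT1 minus NC in OB cells (right) for L1 and the other repeat classes with at least 50 entries, with 1 library per condition. L1 has the lowest median level, 0.426 in NC uninduced, and the highest OB minus uninduced difference of all classes, 0.00989 in NC cells.

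Levels differed more between L1 families than between libraries. In NC uninduced the median was 0.569 for L1MdTf (1126 entries) and 0.525 for L1MdGf (882), families with active members. L1MdA, the largest active family with 6401 entries, had 0.417 and L1MdF, the largest family of all with 7311, had 0.373. The ancient L1M and HAL1 elements (1048 entries) stood at 0.571 and the rodent L1 and Lx elements (2528) at 0.449. L1MdMus, a small family of 200 entries, was the lowest at 0.354. L1MdN (210 entries) stood at 0.553, above L1MdGf. High levels were thus found in some families with active members, in L1MdN and in the oldest elements, while the active L1MdA was lower. These medians mix pieces of the 5′ and 3′ ends, described below, and families differ in their shares. Pieces holding only the 3′ end numbered 3820 in L1MdA, 300 in L1MdTf and 308 in L1MdGf. Their medians lay closer together, at 0.365, 0.393 and 0.399. Pieces holding only the 5′ end had 0.523, 0.657 and 0.604 in the same families.

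Within the active families the first subfamilies, which are the youngest in the usual numbering, were the most methylated in NC uninduced, apart from L1MdTf_II. L1MdA went from 0.632 in L1MdA_I (305 entries) through 0.540 in L1MdA_II (722) and 0.449 in L1MdA_III (1616) to 0.386 in L1MdA_IV (812), 0.395 in L1MdA_V (414), 0.377 in L1MdA_VI (1104) and 0.351 in L1MdA_VII (1428). L1MdGf went from 0.619 in L1MdGf_I (292) to 0.489 in L1MdGf_II (590). L1MdTf had 0.633 in L1MdTf_I (160), 0.648 in L1MdTf_II (223) and 0.541 in L1MdTf_III (743). The older L1MdF had no such order over all entries, with 0.353 in L1MdF_I (1726), 0.526 in L1MdF_II (349), 0.384 in L1MdF_III (2236), 0.356 in L1MdF_IV (1427) and 0.362 in L1MdF_V (1573). Subfamilies also differ in their shares of 5′ and 3′ entries, described below. Among entries reaching the 5′ end, L1MdF had 0.494, 0.589, 0.450, 0.407 and 0.396 from L1MdF_I to L1MdF_V. From L1MdA_I to L1MdA_VII the median went from 0.670 to 0.394 in such entries, but only from 0.394 to 0.336 in 3′ pieces.

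Among the 73 subfamilies with at least 20 entries, the 3 lowest medians in NC uninduced belonged to Lx2A1 (0.315, 45 entries), L1_Mur2 (0.333, 61) and L1MdMus_II (0.334, 85). The 3 highest belonged to ancient elements. L1MB2, with only 22 entries, had medians of 0.670 in NC uninduced, 0.681 in siDNMT1 uninduced, 0.703 in NC OB and 0.704 in siDNMT1 OB. L1MB7 (54 entries) had 0.668, 0.616, 0.641 and 0.597 in the same order, so both siDNMT1 libraries lay below both NC libraries. L1M5 (61 entries) had 0.655, 0.643, 0.652 and 0.570, with the siDNMT1 OB library apart from the others.

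In most mouse L1 families, entries that reach the 5′ end of the consensus were more methylated than pieces of the 3′ end. Entries of the L1Md families were divided into those that start within the first 1000 consensus positions, those that end at or beyond position 6000, those that do both and those that do neither. This division was chosen after the values were seen. The 9598 pieces that held only the 3′ end had a median of 0.353 in NC uninduced, 0.349 in siDNMT1 uninduced, 0.364 in NC OB and 0.353 in siDNMT1 OB. The 5021 pieces that held only the 5′ end had 0.508, 0.502, 0.524 and 0.505. The 2198 entries with both ends had 0.508, 0.504, 0.521 and 0.504. The 331 inner pieces, with neither end, had 0.442 in NC uninduced. They were above the 5′ pieces of the same family in L1MdF (0.471 in 140 entries, against 0.454) and L1MdFanc (0.522 in 32, against 0.373). The same held in L1MdV (0.429 in 33, against 0.390) and barely in L1MdMus (0.333 in 17, against 0.329). In L1MdFanc and L1MdMus the 5′ pieces were also below the 3′ pieces, which had 0.389 and 0.373. Over all L1Md families, pieces with the 5′ end were above the 3′ pieces in all 4 libraries, by far more than any 2 libraries differed. Many entries break at the same place, since 876 end at position 5586 while 199 start at 5587 and 105 at 5588, so a single copy in the genome may be listed as a 5′ and a 3′ entry.

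The same contrast was found subfamily by subfamily. Of the 24 L1Md subfamilies compared, entries reaching the 5′ end, with or without the 3′ end, had a higher median than 3′ pieces in 20 in NC uninduced, siDNMT1 uninduced and NC OB, and in 21 in siDNMT1 OB. Medians of 5′ entries ranged from 0.327 in L1MdMus_I to 0.698 in L1MdTf_I, whereas those of 3′ pieces ranged from 0.306 in L1MdF_I to 0.528 in L1MdV_III. L1MdTf_I had 0.698 in its 111 entries with the 5′ end and 0.423 in its 48 3′ pieces. In L1MdTf_II these were 0.681 (169) and 0.346 (53), in L1MdGf_I 0.661 (238) and 0.312 (48), and in L1MdA_I 0.670 (220) and 0.394 (80). In the older L1MdA_VII the gap was narrow, with 0.394 in 389 entries with the 5′ end and 0.336 in 1025 3′ pieces. The exceptions in NC uninduced were L1MdFanc_I, L1MdFanc_II, L1MdMus_I and L1MdV_III.

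**Figure D2:**
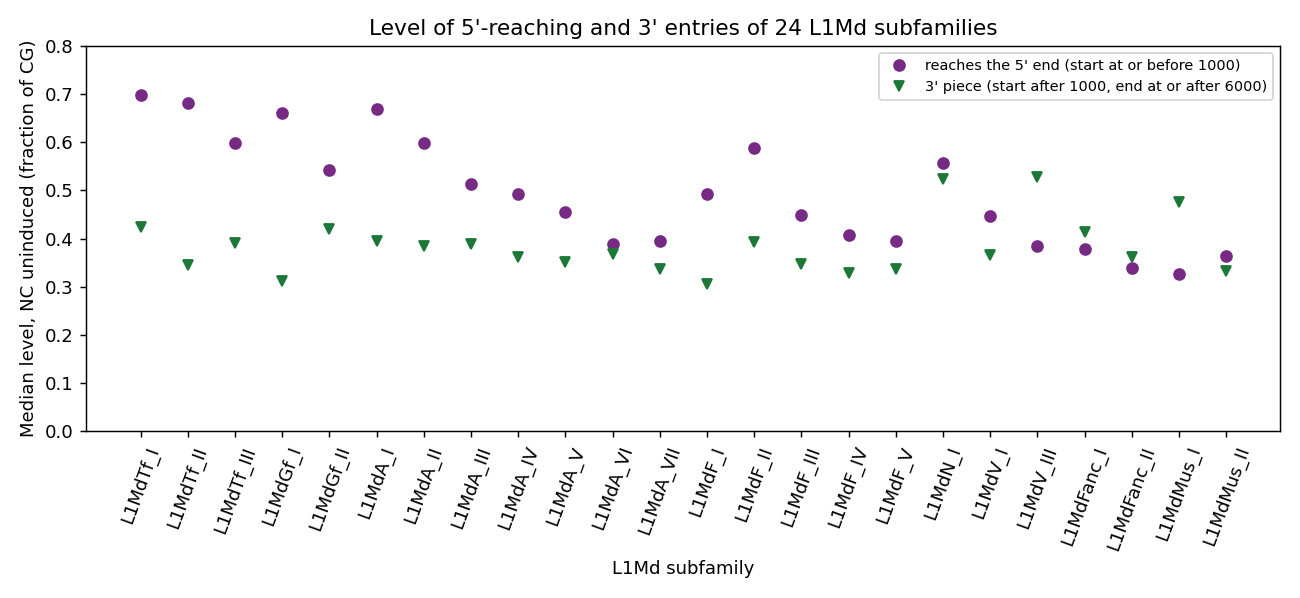
Median methylation level in NC uninduced of L1Md subfamilies, for entries that reach the 5′ end of the consensus and for 3′ pieces. The 5′ medians run from 0.327 to 0.698 and lie above the 3′ medians in 20 of 24 subfamilies.

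Level also followed how far into the 5′ end an entry reached. Among L1Md entries with both ends, those starting at positions 1 to 100 had a median of 0.649 in NC uninduced (239 entries), those starting at 101 to 200 had 0.549 (322), at 201 to 300 0.537 (431), at 301 to 400 0.482 (571), at 401 to 500 0.459 (445) and at 501 to 1000 0.375 (190). Each later class was lower than the one before. In L1MdA the median went from 0.654 for starts at 1 to 100 (105 entries) to 0.373 for starts at 501 to 1000 (83), although starts at 401 to 500 (0.467, 242) were slightly above those at 301 to 400 (0.459). From starts at 1 to 100 to starts at 401 to 500 the median of L1MdTf went from 0.692 (56) to 0.425 (28) and that of L1MdGf from 0.747 (26) to 0.508 (34). L1MdF did not follow a steady order, with 0.464, 0.399, 0.494, 0.458, 0.427 and 0.36 over the 6 classes. Families differ in the length of their 5′ UTR, and the share of each family was not held equal across the start classes.

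**Figure D3:**
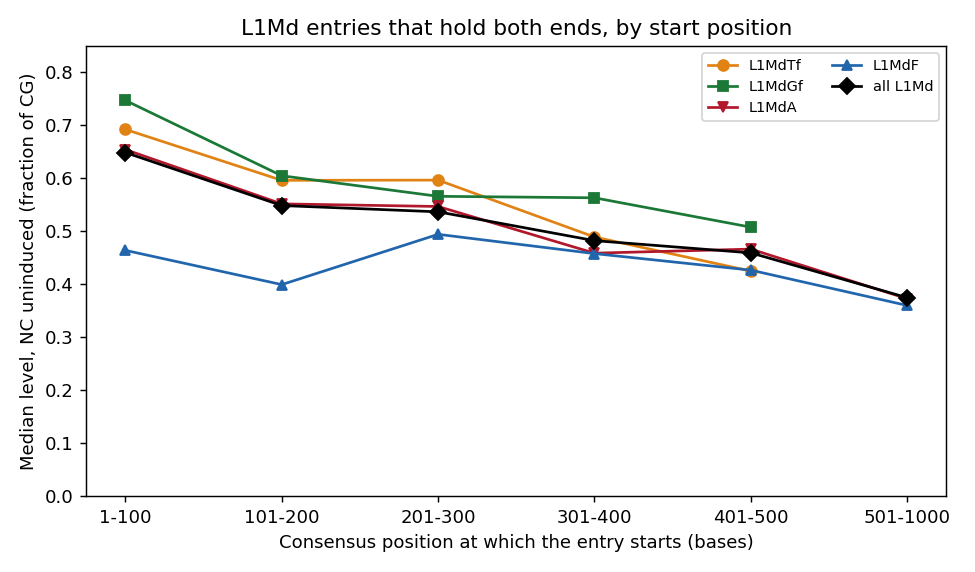
Median methylation level in NC uninduced of L1Md entries that hold both ends, by the consensus position at which they start. Over all L1Md entries the median goes from 0.649 for starts at 1 to 100 to 0.375 for starts at 501 to 1000, while L1MdF shows no steady order.

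OB induction of NC cells went with slightly higher L1 methylation. The median difference of NC OB minus NC uninduced was 0.00989 (interquartile range over entries 0.0413), with 13116 entries higher and 7445 lower. Centring each library on its median over all repeats reduced this difference to 0.00322. An entry was counted as having risen or fallen when its level differed by at least 0.1. By that count 746 L1 entries rose (3.60%, against 1.62% of all regions in the 4 libraries) and 567 fell (2.73%, against 1.96% of all regions). Among other repeats 3.72% rose and 3.85% fell, so the L1 share of rises was not above theirs. The shift was therefore a small one spread over many entries, and only a few entries moved far. L1 had the highest median difference of all repeat classes compared, the other 18 lying between -0.00749 in LINE/CR1 and 0.00550 in LTR/ERVK, the class of intracisternal A particles and related retroviruses. It was above 0 in 60 of the 73 L1 subfamilies and below 0 in 12, and after centring above 0 in 41 and below 0 in 32. The L1Md families ranged from 0.00403 in L1MdMus to 0.0124 in L1MdGf, whereas the ancient L1M and HAL1 elements had -0.00017.

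Because L1 levels are lower than those of other repeats, differences were also read within classes of level. Among entries with a level of 0.2 to 0.4 the median difference was 0.0127 in 6233 L1 entries and 0.00475 in 4163 other repeats. From 0.4 to 0.6 it was 0.00986 (6936 entries) against 0.00309 (8176), and from 0.6 to 0.8 it was 0.00977 (3673) against 0.00209 (6840). Only in the highest class, from 0.8, were they alike, with 0.00253 in 654 L1 entries and 0.00256 in 2550 others.

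In siDNMT1 cells the deposited L1 levels hardly differed between OB and uninduced cells. The median difference of siDNMT1 OB minus siDNMT1 uninduced was 0.000988 (interquartile range 0.0425), with 10611 entries higher and 10007 lower. After centring on all repeats it was 0.00639, above the centred 0.00322 of NC cells, so the order of NC and siDNMT1 cells turned with the scaling. By at least 0.1, 785 L1 entries rose (3.79%, against 1.78% of all regions) and 844 fell (4.07%, against 3.28% of all regions). Among other repeats 4.03% rose and 6.44% fell. Every other repeat class compared was below L1, from -0.0230 in the class named Unknown to -0.00357 in LTR/ERVK. Of the 73 subfamilies, 31 were above 0 and 42 below, and after centring 50 were above and 23 below. Ancient L1M and HAL1 elements had -0.0121 and rodent L1 and Lx elements -0.00332, while L1MdA had 0.00242 and L1MdF 0.00203.

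DNMT1 depletion without induction went with very slightly lower L1 levels. The median difference of siDNMT1 minus NC uninduced was -0.00383 (interquartile range 0.0376), and 56.1% of L1 entries were lower. By at least 0.1, 660 entries fell (3.18%, against 1.59% of all regions) and 611 rose (2.95%, against 1.34% of all regions). Falls and rises were thus nearly as frequent. Other repeats had a median of -0.00684, with 3.81% that fell and 2.84% that rose. The median was below 0 in 64 of the 73 subfamilies and above 0 in 9, whereas centring on all repeats left 31 below and 42 above.

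In OB cells the L1 difference in deposited levels was larger and in the same direction. The median difference of siDNMT1 minus NC was -0.0137 (interquartile range 0.0397), and 14097 entries, 68.0%, were lower in siDNMT1 OB. By at least 0.1, 864 fell (4.17%, against 2.56% of all regions) and 634 rose (3.06%, against 1.4% of all regions). It was below 0 in 71 of the 73 subfamilies, and from -0.0116 in L1MdV and -0.0126 in L1MdF to -0.0183 in L1MdGf over the families. The siDNMT1 minus NC difference was lower in OB than in uninduced cells by a median of 0.0097 over L1 entries, and in 67 of the 73 subfamilies. Centring turned this to a median 0.00237 higher in OB cells, with 25 of the 73 subfamilies lower. The NC OB library enters this comparison and the induction comparison above, so a high level in that 1 library moves both.

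L1 was not the repeat class with the largest loss. Other repeats had a median siDNMT1 minus NC difference of -0.0180 in OB cells, with 6.48% that fell and 3.16% that rose. Of the 18 other classes, 16 were lower than L1, among them LTR/ERVK with -0.0167 and SINE/B2 with -0.0223. Once each library was centred on its median over all repeats, the L1 medians turned positive, to 0.00220 in uninduced and 0.00439 in OB cells, so relative to repeats as a whole L1 lost less. After centring the median in OB cells was below 0 in 12 of the 73 subfamilies and above 0 in 61. Within classes of level from 0.2 upwards L1 was likewise nearer to 0 than other repeats in OB cells, with -0.0115 against -0.0153 from 0.2 to 0.4 and -0.0192 against -0.0215 from 0.6 to 0.8. Below 0.2 both were close to 0, with -0.00327 for L1 and -0.00285 for other repeats.

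**Figure D4:**
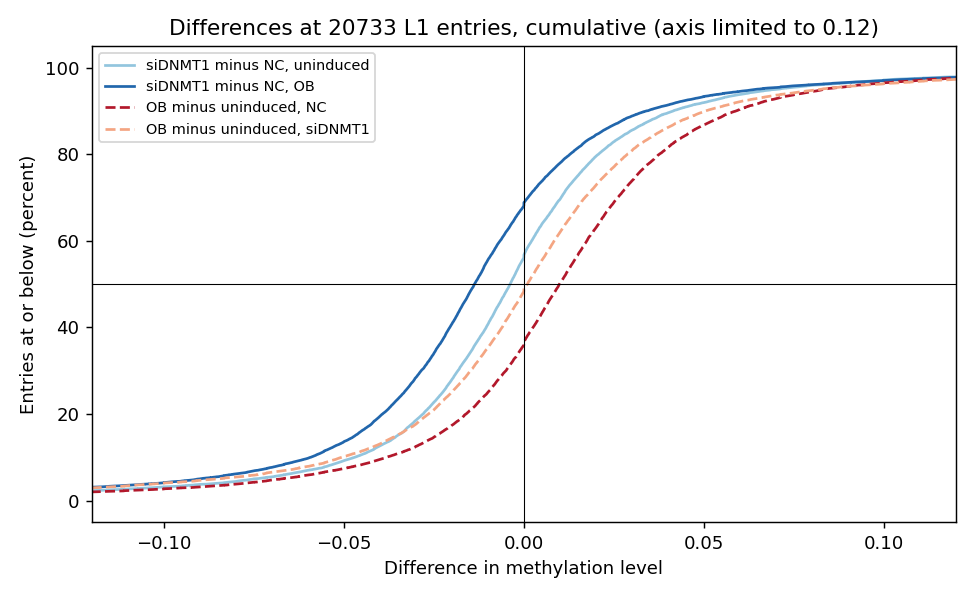
Cumulative percent of the 20733 L1 entries (vertical axis) at or below each difference in methylation level (horizontal axis, a fraction), with a line for each of the 4 comparisons of libraries. The lines cross 50 percent at the median differences, -0.0137 for siDNMT1 minus NC in OB cells, -0.00383 in uninduced cells, 0.000988 for OB minus uninduced in siDNMT1 cells and 0.00989 in NC cells.

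The siDNMT1 minus NC difference varied with the level and with the piece of L1. In uninduced cells its median went from 0.00208 for L1 entries below 0.2 to -0.0108 for those from 0.8, and in OB cells from -0.00327 below 0.2 to -0.0192 from 0.6 to 0.8 and -0.0180 from 0.8. In OB cells it was -0.0175 in pieces with only the 5′ end, -0.0164 in entries with both ends and -0.00992 in 3′ pieces. Entries with the 5′ end lay below the 3′ pieces of the same subfamily in 18 of 24 subfamilies for this comparison and in 20 for uninduced cells. OB minus uninduced in NC cells was higher in the 5′ entries of all subfamilies but 1, L1MdN_I, with medians of 0.0130 in 5′ pieces and 0.00883 in 3′ pieces. These differences share the level contrast between both kinds of entries described above, and the part of level in them was not tested.

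Entries covering more of the consensus differed less from library to library, and the shift of the median stood out more in them. The interquartile range of siDNMT1 minus NC uninduced was 0.0456 for the 5177 entries under 500 bases, 0.0391 for the 9172 from 500 to 1999, 0.0339 for the 2205 from 2000 to 4999 and 0.0288 for the 4179 from 5000. In OB cells 5.93% of the shortest class fell by at least 0.1 and 4.17% rose, against 2.32% and 1.46% of the longest. Large changes were thus most frequent in short entries. The share of entries that were lower in siDNMT1 OB than in NC OB moved the other way, from 64.0% of the shortest class to 76.9% of the longest, whose median difference was -0.0172. The longest class also had the highest level, with a median of 0.528 in NC uninduced against 0.441, 0.375 and 0.423 in the shorter classes. Of its 4160 L1Md entries, only 132 lacked the 5′ end. The part of level and of piece in these trends was not tested.

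Of all L1 entries, 141 were lower by at least 0.1 in siDNMT1 in both comparisons and 112 were higher in both, while 117 fell in uninduced and rose in OB cells and 138 did the reverse. Among the L1 entries that changed by at least 0.1 in both comparisons, about as many switched direction as kept it. The share that switched was not computed over all regions. The 141 repeated falls were 21.4% of the uninduced falls and 16.3% of those in OB cells, against 18.4% and 11.5% over all regions. The 112 repeated rises were 18.3% and 17.7%, against 16.2% and 15.5% over all regions. The shares of rises were thus slightly above the background. The share of falls in OB cells was further above it, and none of these differences was tested. Leaving aside 9 entries of no named family, ancient L1M and HAL1 elements had the highest share of falls in OB cells, 93 of 1048 (8.87%), with 57 rises (5.44%). L1MdTf had 61 falls (5.42%) and 45 rises (4.0%) in uninduced cells. L1MdN, with 210 entries, had 1 fall and 0 rises in uninduced cells and 1 fall and 2 rises in OB cells.

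The entries with the largest repeated change were mostly short pieces of the 3′ end. L1MdF_I 5587-5596, an entry of 10 consensus bases, had levels of 0.818 in NC uninduced, 0.333 in siDNMT1 uninduced, 1 in NC OB and 0.50 in siDNMT1 OB. Lx2B2 4624-6011 had exactly the same 4 levels. L1MdA_III 6182-6577 had 1, 0.333, 0.714 and 0.250 in that order. Both siDNMT1 levels lay below both NC levels in each of these, an order that follows largely from their choice as the largest repeated falls. L1MdF_I 5926-6573 had 0.417, 0, 0.667 and 0.250, and L1MdA_III 6108-6579 had 0.600, 0.20, 0.833 and 0.286.

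Rises of the same size were found too. L1MdF_IV 5868-6567 had 0.105 in NC uninduced, 0.80 in siDNMT1 uninduced, 0.0833 in NC OB and 0.600 in siDNMT1 OB. L1MdA_II 5108-6579 had 0.20, 0.714, 0.444 and 0.833, and L1MdA_IV 5979-6576 had 0.529, 0.818, 0.467 and 0.875. In these, chosen as the largest repeated rises, both siDNMT1 levels lay above both NC levels. L1MdA_VI 5980-6568 had 0, 0.50, 0.600 and 1, so its siDNMT1 uninduced level lay below its NC OB level. L1MdA_VI 2587-6576 had 0.417, 0.750, 0.571 and 1.

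Most of the longest entries moved little. Of the 4179 entries covering at least 5000 bases, 4160 were of L1Md families, of which 2198 held both ends of the consensus, 1830 only the 5′ end and 132 only the 3′ end. Among these long entries, 7 fell and 10 rose by at least 0.1 in both siDNMT1 comparisons. Their median distance from the lowest to the highest library was 0.0372. Over all 151644 regions, 445 fell and 329 rose in both comparisons. L1MdA_II 1-6660, the longest entry, had levels of 0.700 in NC uninduced, 0.693 in siDNMT1 uninduced, 0.720 in NC OB and 0.696 in siDNMT1 OB. L1MdTf_I 16-6653 had 0.817, 0.806, 0.809 and 0.780, and L1MdTf_II 18-6644 had 0.672, 0.680, 0.708 and 0.675. The highest and lowest of the 10 longest in NC uninduced were this L1MdTf_I copy and L1MdA_VII 27-6653, which had 0.276, 0.260, 0.274 and 0.263.

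A few of the longest copies did move. L1MdA_I 37-6659 had 0.744 in NC uninduced, 0.607 in siDNMT1 uninduced, 0.717 in NC OB and 0.741 in siDNMT1 OB, so only the siDNMT1 uninduced library was low. L1MdA_II 9-6660 had 0.669, 0.577, 0.628 and 0.590, with both siDNMT1 libraries below both NC libraries. L1MdTf_III 25-6647 had 0.603, 0.621, 0.561 and 0.505, with both OB libraries below both uninduced ones. L1MdTf_III 12-6640 had 0.560, 0.565, 0.597 and 0.573, L1MdTf_II 16-6640 had 0.740, 0.753, 0.732 and 0.743, and L1MdTf_II 31-6648 had 0.715, 0.723, 0.712 and 0.733. These last entries moved little, by 0.0365, 0.0214 and 0.0210 from the lowest to the highest library.

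**Figure D5:**
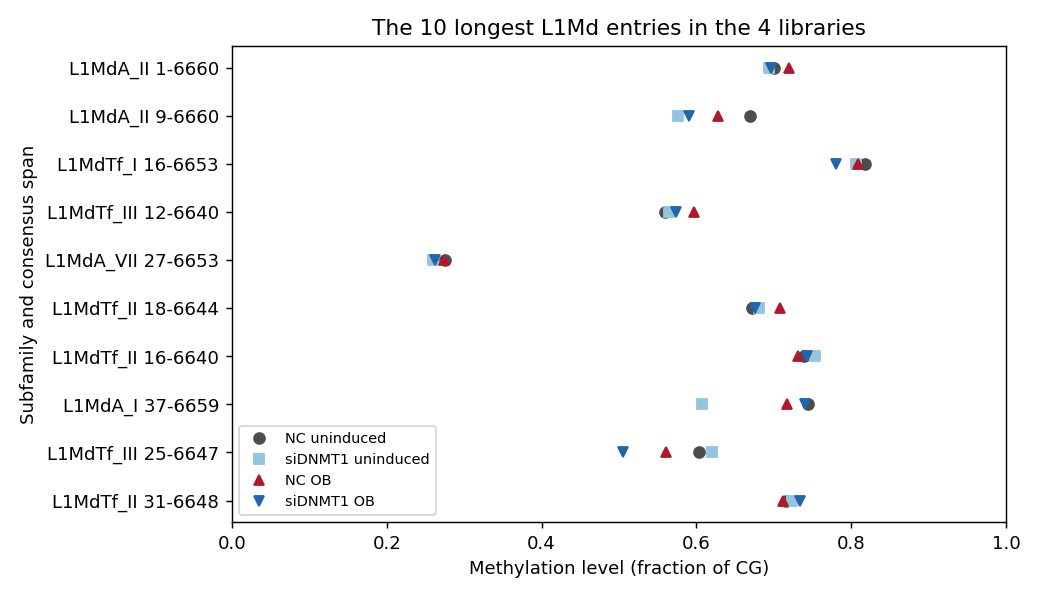
Methylation level (fraction of methylated CG cytosines) of the 10 longest L1Md entries in each of the 4 libraries. Copies keep their own level across libraries, from 0.276 for L1MdA_VII 27-6653 to 0.817 for L1MdTf_I 16-6653 in NC uninduced, and L1MdA_I 37-6659 is low in siDNMT1 uninduced alone.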

How the data were processed

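C3H10T1/2 cells were profiled by what the study calls reduced representation bisulfite sequencing, with 1 library for each of 4 conditions taken from the sample labels. Per the labels, DNA was sheared by sonication before bisulfite treatment. The submitters' processing notes name CASAVA, Trimmomatic (version 0.36), Bismark (version 0.16.3) and mm10. The authors deposited the fraction of methylated CG cytosines per region in 8 classes of regions. The coverage minimum, the weighting of cytosines and the repeat annotation are not given in the sources used here.

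L1 entries with a level in all 4 libraries were kept, and 2 entries of class LINE/L1-Tx1 were left out. Differences between libraries were described by medians and by counts of entries changed by at least 0.1. Without replicates no p-values were computed. Named entries are at most 5 per direction whose siDNMT1 minus NC change reached 0.1 both uninduced and in OB cells, ranked by the smaller change, the 10 longest L1Md entries from 5000 bases, and the 3 lowest and 3 highest subfamilies of at least 20 entries by NC uninduced median. L1Md families are names in which L1Md is followed by a capital letter, because the prefix planned earlier matched no name. Members and lists were chosen with earlier results of these data known. Other subfamilies and the families were described as groups, and the division by 5′ and 3′ ends and the subfamilies named beside it were chosen after their values were seen. Functions were tested on simulated data. Alternatives covered the threshold, centring, extreme levels, mean level, consensus span and shared levels. Computing was done in Python (version 3.11.15) with numpy (version 2.4.6) and pandas (version 2.3.3), and figures were drawn with matplotlib (version 3.10.9).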

Additional observations from a re-analysis of the deposited data

Results flagged for a closer look

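In 3 L1 families the median change with OB induction had opposite signs in NC and siDNMT1 cells. The difference was not tested, since each condition had 1 library. L1MdN had a median OB minus uninduced difference of 0.00744 in NC cells and -0.00109 in siDNMT1 cells. L1MdV had 0.00940 and -0.00273. Rodent L1 and Lx elements had 0.00617 and -0.00332. The signs depend on the scaling. With each library centred on its median over all repeats, the values were 0.000773 and 0.00431 for L1MdN, 0.00274 and 0.00267 for L1MdV, and -0.000495 and 0.00209 for rodent L1 and Lx elements. These are medians over entries, and the entries of a family did not all move one way.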

How the results depend on the processing

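With 8 alternatives, 44 of 80 recomputed values moved little, 33 moved and 3 changed sign. With a threshold of 0.05, 9.24% of L1 entries fell and 8.11% rose for siDNMT1 minus NC uninduced, 13.6% and 6.75% for OB cells, 7.41% and 13.3% for OB minus uninduced in NC cells, and 10.2% and 10.2% in siDNMT1 cells. With 0.2 these were 0.825% and 0.791%, 1.09% and 0.974%, 0.733% and 0.859%, and 1.03% and 1.07%. Centring each library on its median over all repeats turned the siDNMT1 minus NC medians to 0.00220 in uninduced and 0.00439 in OB cells, since repeats as a whole were lower by more, and gave 0.00322 and 0.00639 for OB minus uninduced in NC and siDNMT1 cells. Over entries averaging 0.5 or more across the libraries the 4 medians, in the order above, were -0.00713, -0.0179, 0.00864 and -0.00131, the last of which changed sign, and the cause was not tested. Over entries spanning at least 2000 bases, a choice made after seeing the data, falls and rises were 1.90% and 1.71%, 2.55% and 1.54%, 1.33% and 2.40%, and 2.27% and 2.24%, with medians of -0.00525, -0.0167, 0.0125 and 0.00226. With a 5′ limit of 500 in place of 1000, also chosen afterwards, 5′ entries had the higher median in 20, 20, 21 and 21 of 24 subfamilies. The alternatives of autosomes only and of at least 10 CG dinucleotides were not run, because entry names give consensus positions alone. No paired analysis was possible because each condition had 1 library and no test was made. Unknown depth limits every single level, most of all in short entries.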
